A study of Mus musculus with 8 samples.

Results

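The comparison described here sets the ascending aorta of mice with mucopolysaccharidosis VII (MPS VII) whose aorta had not dilated against the ascending aorta of normal mice. It uses the 2 arrays whose titles name MPS VII without dilatation and the 3 arrays whose titles name normal mice, 5 of the 8 arrays of the series, and the 3 arrays of MPS VII mice with dilated aortas were left out of it. The mice without dilatation were a female of 5.8 months (replicate 1) and a male of 6.7 months (replicate 2), with MPS VII given as the genotype. The normal mice were a female of 5.8 months (replicate 1), a male of 6.4 months (replicate 2) and a female of 7 months (replicate 3). All were of strain C57BL/6 and none is labelled with a treatment. The labels give neither the allele behind MPS VII nor the way dilatation was judged, so a mouse without dilatation is a mouse so labelled at the age when its aorta was taken. Total RNA was hybridised to Illumina bead arrays, on which the brightness of a probe, its intensity, stands for the amount of a transcript.

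MPS VII is a lysosomal storage disease. The lysosome takes apart glycosaminoglycans, the sugar chains of proteoglycans, in an ordered series of enzyme steps, and beta-glucuronidase, the product of Gusb, removes glucuronic acid from chondroitin, dermatan and heparan sulfate and from hyaluronan fragments. Without it, partly degraded chains build up in lysosomes of many cells, macrophages and vascular smooth muscle among them. The wall of the ascending aorta is built of smooth muscle cells between elastic sheets, lined by endothelium and wrapped in an adventitia of fibroblasts, and in mice the fat around the thoracic aorta has features of brown fat, which burns fatty acids in mitochondria to make heat.

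The 5 arrays had medians between 17.75 and 17.99 intensity units, as the deposited values share a distribution across arrays, which hides any overall gain or loss of RNA. Between 45.0% and 45.2% of the probes of an array lay above background, set at 25.6 intensity units. The sex-linked genes Xist and Eif2s3y matched the labelled sex of every mouse. The arrays of the aortas without dilatation correlated with each other at 0.979 across genes and with the normal arrays at 0.948 to 0.969, and normal arrays correlated with each other at 0.983 to 0.989. The largest axis of a principal component analysis, with 63.5% of the variance, held the aortas without dilatation at 35.6 and 21.9 and the normal aortas between -22.1 and -14.4. The next axis, with 18.5%, separated the male arrays (13.4 and 17.9) from the female ones (-12.9 to -7.53).

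Of 9623 genes tested, 1149 changed (limma, Benjamini-Hochberg adjusted p under 0.05), which is 11.9% of those tested. In the aortas without dilatation 528 genes (5.49%) were higher and 621 (6.45%) lower than in normal aortas. Each count of list members below is to be set beside these shares, and a few members of a short list differ little from them. The lists were chosen with earlier results of these data known, so a count above these shares is a description and no test. Rises of at least 2-fold numbered 259 and falls of that size 147. The median log2 difference over all genes tested was -0.07. Every MPS VII array lay outside the range of the normal arrays for all 1149 genes called, and this was so for 51.3% of all genes tested (19.7% higher and 31.6% lower). Differences below are log2 differences of intensity plus 50, MPS VII without dilatation minus normal, with limma's standard error (SE) and adjusted p, and a gene is said to have risen or fallen only where it passed that threshold. Because the sample is a whole piece of vessel, fewer cells of a type and less RNA per cell cannot be told apart. In 5 further fits each array was left out in turn. Leaving out normal replicate 1, 2 or 3 gave 286, 522 or 153 calls. Leaving out an MPS VII array leaves 1 mouse in that group. Each of the 5 fits has 2 residual degrees of freedom in place of 3. A call that ends in them therefore mixes the smaller number of arrays with the influence of the mouse left out. The difference of Hexa, whose call ended, stayed between 0.52 and 0.60. Of the 1149 genes, 104 were called in each of these 5 fits and 1148 had the same sign in each fit that tested them. A gene above background on only 2 arrays was not tested in every fit. Hbb-b2, Gbp2b, Fbp1 and Ctsl, for instance, were above background on both MPS VII arrays and on 0 normal arrays. They were tested only in the 3 fits that left out a normal array, and called in each of the 3. Those fits keep both MPS VII mice, so they cannot show whether a call rests on 1 of them. Cxcl14, Tie1 and Mmp12 were likewise tested only in those 3.

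**Figure D1:**
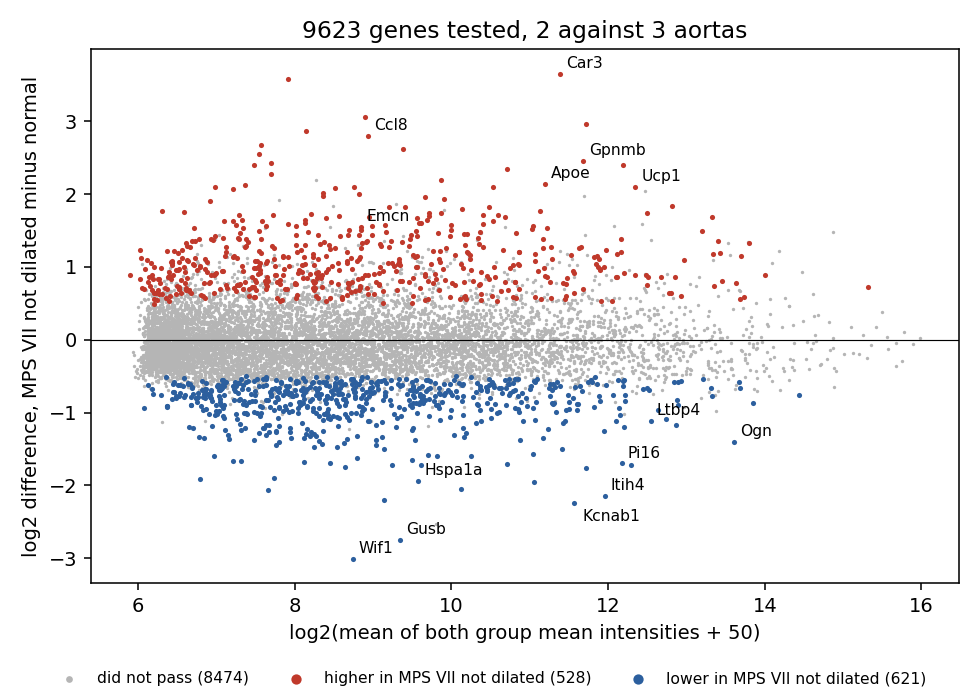
Log2 difference (MPS VII without dilatation minus normal, vertical) against the log2 of the mean intensity of both groups plus 50 (horizontal), 1 point a gene, with 528 genes that rose in red, 621 that fell in blue and the rest in grey. Car3 and Wif1 stand at the top and bottom of the labelled genes, at 3.65 and -3.01, and Gusb at -2.75.

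Gusb itself was the starting point. It had 112 and 125 intensity units in MPS VII aortas without dilatation, against 1094, 992 and 1172 in normal aortas, with a wide gap between the groups. It fell by 2.75 (SE 0.14, limma adjusted p = 0.00143), the smallest adjusted p of the genes named here. Both further probes of Gusb lay near background. Of the other enzymes that cut glycosaminoglycans, 8 were tested. Hyal1, a lysosomal hyaluronidase, had 956 and 1045 units without dilatation and 2718, 2727 and 2563 in normal aortas, a difference of -1.37 (SE 0.13, limma adjusted p = 0.00523) with no overlap. Hexa, a subunit of beta-hexosaminidase, had 2572 and 2739 units against 1774, 1696 and 1887 in normal aortas, a rise of 0.56 (SE 0.13, limma adjusted p = 0.0401). The other 6 did not pass, with Ids, iduronate sulfatase, at -0.39 and Naglu, which removes N-acetylglucosamine from heparan sulfate, at 0.29 as the ends of their range, and Idua, alpha-iduronidase, at -0.18. The list as a whole thus had 1 member higher and 2 lower, and its median of -0.09 lay beside the -0.07 of all genes tested. The calls for Gusb and Hyal1 held whichever array was left out, and that for Hexa ended in each of the 5 fits.

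Among 28 other lysosomal enzymes and membrane proteins, 6 rose and 0 fell, with a median of 0.26. Gpnmb, a glycoprotein of lysosomes and phagocytes, had 5424 and 5603 units without dilatation and 994, 782 and 1154 in normal aortas. The gap was about as even in both MPS VII mice, and the rise of 2.45 (SE 0.18, limma adjusted p = 0.00347) held whichever array was left out. The other 5 were smaller: the peptidase gene Dpp7 rose by 0.79, the alpha-mannosidase gene Man2b1 by 0.78, the beta-mannosidase gene Manba by 0.59, Psap, which encodes the saposins, by 0.56 and Grn, progranulin, by 0.55 (limma adjusted p between 0.0275 and 0.0492). Lamp1, a structural protein of the lysosomal membrane, had 9077 units on both MPS VII arrays against 8392, 8998 and 8542 in normal aortas, a difference of 0.07 (SE 0.13, limma adjusted p = 0.736). The calls for Dpp7, Man2b1 and Manba ended without at least 1 array (highest adjusted p 0.0894, 0.0868 and 0.16), and those for Psap and Grn ended in each of the 5 fits. Of 21 autophagy genes 2 rose and 0 fell, beside 5.49% and 6.45% of all genes tested. Gabarapl1, which coats autophagosomes, had 4701 and 4298 units against 1793, 2208 and 1554 in normal aortas, a rise of 1.27 (SE 0.18, limma adjusted p = 0.0116). Sqstm1, the cargo receptor p62, had 2942 and 2988 units against 1570, 1964 and 1314 in normal aortas, a rise of 0.87 (SE 0.18, limma adjusted p = 0.0305). Both ranges lay clear of the normal one, but the call for Sqstm1 ended in 4 of the 5 fits and that for Gabarapl1 without MPS VII replicate 1 (adjusted p 0.0509).

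Cathepsins are the proteases of the lysosome, and some of them cut elastin and collagen when secreted. Of 15 cathepsins and relatives 5 rose and 0 fell, with a median of 0.33. Ctsk, a protease that cuts collagen and elastin, had 1561 and 1646 units without dilatation and 799, 653 and 714 in normal aortas, more than any normal mouse in both MPS VII mice. Its rise of 1.10 (SE 0.14, limma adjusted p = 0.0105) held whichever array was left out. Ctsl, cathepsin L, had 45.3 and 100.3 units, and all 3 normal arrays were below background, so it was at least 2.64-fold higher (limma adjusted p = 0.00861), near the detection limit. Lgmn, legumain, had 1231 and 1676 units against 695, 948 and 516 in normal aortas, a rise of 0.99 (SE 0.25, limma adjusted p = 0.0484). Ctsa, which protects beta-galactosidase and neuraminidase in the lysosome, rose by 0.89 (SE 0.22, limma adjusted p = 0.0429), and Cstb, an inhibitor of cathepsins, by 0.61. The calls for Lgmn and Ctsa ended without at least 1 array (highest adjusted p 0.157 and 0.132), and that for Cstb in each of the 5 fits. A dimmer probe of Ctsa, above background on all 5 arrays, stood at -0.30, so its direction rests on the probe. Ctss, cathepsin S, had 49.6 and 28.4 units against 66.9, 43.2 and 14.6 in normal aortas, with the groups mixed together, and Ctsb and Ctsd stood at 0.01 and 0.07.

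Many lysosomal genes carry the letters CACGTG near their start, the core of the element read by the factor TFEB, and clock factors read the same letters in genes of the circadian clock. The windows of 3 cathepsin genes that rose and 2 clock genes that fell are shown, since each holds the motif in the 250 bases before the start. CACGTG is its own reverse complement, so a match lies on both strands. It was found in 6.02% of all 32851 promoter windows and, counted by gene, in 682 of the 6965 genes tested that had a window (9.79%). It was found in 5 of 10 cathepsin genes, in 6 of 25 other lysosomal genes, in 2 of 9 glycosaminoglycan enzymes and in 3 of 11 clock genes. Of the 4 cathepsin-list genes that rose and had a window, Ctsa, Lgmn and Ctsl held it and Ctsk did not, while Ctsd and Ctsf held it and did not pass the test. Of the 6 other lysosomal genes that rose, Dpp7 held it, while Atp6v1a, Cln3, Gaa, Lamp1 and Mcoln1 held it and did not pass. Per1 and Ciart, described further on, are the clock genes that fell and held it. Tef held it and did not pass, and Nr1d2 fell without it. Ctsa, Lgmn and Per1 each have 2 windows, of which 1 is shown. The sequences are RefSeq's, on assembly GRCm38.p6, written 5′ to 3′ on the strand of the gene, with CACGTG in capitals. A match describes the letters and shows no binding.
Ctsa (rose), chr2:164833523-164833772, strand +: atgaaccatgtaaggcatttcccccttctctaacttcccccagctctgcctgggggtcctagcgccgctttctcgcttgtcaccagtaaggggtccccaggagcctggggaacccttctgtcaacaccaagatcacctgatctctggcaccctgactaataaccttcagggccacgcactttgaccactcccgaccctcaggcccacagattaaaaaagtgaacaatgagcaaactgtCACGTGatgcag
Lgmn (rose), chr12:102439093-102439342, strand -: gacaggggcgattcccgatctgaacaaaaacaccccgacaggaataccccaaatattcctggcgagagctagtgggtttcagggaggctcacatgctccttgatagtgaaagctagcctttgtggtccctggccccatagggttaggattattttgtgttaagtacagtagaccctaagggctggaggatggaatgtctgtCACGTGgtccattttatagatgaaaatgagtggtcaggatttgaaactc
Ctsl (rose), chr13:64370521-64370770, strand -: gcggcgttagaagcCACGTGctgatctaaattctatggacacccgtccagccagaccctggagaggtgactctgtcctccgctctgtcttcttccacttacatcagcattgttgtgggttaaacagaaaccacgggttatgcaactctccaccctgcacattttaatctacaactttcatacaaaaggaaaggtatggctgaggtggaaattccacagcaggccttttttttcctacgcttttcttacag
Per1 (fell), chr11:69098699-69098948, strand +: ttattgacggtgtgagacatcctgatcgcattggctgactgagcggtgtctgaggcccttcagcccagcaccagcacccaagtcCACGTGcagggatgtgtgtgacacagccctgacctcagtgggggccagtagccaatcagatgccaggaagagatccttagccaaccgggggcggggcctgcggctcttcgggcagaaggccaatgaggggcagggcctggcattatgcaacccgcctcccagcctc
Ciart (fell), chr3:95882229-95882478, strand -: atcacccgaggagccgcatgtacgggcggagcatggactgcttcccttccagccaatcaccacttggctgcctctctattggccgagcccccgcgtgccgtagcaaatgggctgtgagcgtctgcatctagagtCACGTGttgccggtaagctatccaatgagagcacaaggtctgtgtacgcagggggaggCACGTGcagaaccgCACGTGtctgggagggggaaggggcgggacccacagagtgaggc

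Macrophages clear storage material and carry receptors for it. Of 18 macrophage marker genes 11 rose and 1 fell, against 5.49% and 6.45% of all genes tested, and the list median was 1.05. Summed over the list, the intensity was 21542 and 36442 in aortas without dilatation and 9988, 12768 and 8394 in normal aortas, with replicate 2 the higher of the MPS VII mice. Ms4a7, a membrane protein of macrophages, had 307 and 590 units against 2.39, 48.3 and 4.66 in normal aortas, where it was above background on 1 of 3 arrays. It was among the 14 largest rises, at 2.87 (SE 0.34, limma adjusted p = 0.00839), and its call held whichever array was left out. Lyz2, the lysozyme of myeloid cells, had 1845 and 3646 units against 440, 853 and 268 in normal aortas, a rise of 2.35 (SE 0.45, limma adjusted p = 0.0238), though Lyz1 is a near copy and which of the pair a probe reads is uncertain. Lgals3, galectin-3, had 2561 and 4349 units against 880, 896 and 1078 in normal aortas, a rise of 1.77 (SE 0.23, limma adjusted p = 0.0105) that held in all 5 fits. Fcgr3, an Fc receptor for IgG, had 340 and 610 units against 75.2, 132 and 37.1 in normal aortas, a rise of 2.01 (SE 0.34, limma adjusted p = 0.018). In each of these genes the groups were apart and replicate 2 was the higher MPS VII mouse.

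The rise was not shared by all macrophage genes. Cd163, a scavenger receptor of tissue-resident macrophages, had 184 and 196 units without dilatation and 399, 357 and 309 in normal aortas, a difference of -0.75 (SE 0.15, limma adjusted p = 0.0265). Retnla, a secreted marker of alternatively activated macrophages, was among the 14 largest falls, with 101 and 163 units against 698, 617 and 388 in normal aortas (a difference of -1.75, SE 0.26, limma adjusted p = 0.0138). Both lay below every normal mouse. Fcer1g, the signalling chain of Fc receptors, had 591 and 1022 units against 455, 566 and 389 in normal aortas. Its difference of 0.69 did not pass (SE 0.25, limma adjusted p = 0.109). Tyrobp, a separate signalling chain, rose by 0.89 (SE 0.21, limma adjusted p = 0.0416). Aif1 and Spi1 stood at 0.08 and 0.29 and did not pass. Over the 5 fits that left out 1 array, between 3 and 10 members were called higher and the median ranged between 0.79 and 1.47. The call for Lyz2 ended in 3 of them, that for Fcgr3 in 2, that for Tyrobp in 4 and that for Cd163 in all 5, and Retnla lost its call without MPS VII replicate 1 (adjusted p 0.0599). Tyrobp stood at 0.57 without MPS VII replicate 2. A dimmer probe of Lyz2 gave 1.27.

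Some genes of proteins that tag and present material were higher too. Of 11 genes of classical complement and its regulators 3 rose and 0 fell, and the 3 were the chains of C1q, which starts the pathway: C1qc by 1.49 (SE 0.27, limma adjusted p = 0.0215), C1qb by 1.32 (SE 0.30, limma adjusted p = 0.0358) and C1qa by 0.88 (SE 0.19, limma adjusted p = 0.0313). C1qc had 868 and 1235 units in aortas without dilatation and 297, 493 and 258 in normal aortas. The proteases that follow C1q in the pathway, C1s1 and C2, stood at 0.57 and 0.36 and did not pass. Of 6 genes of MHC class II presentation 3 rose and 0 fell. Cd74, the invariant chain, had 1538 and 2168 units against 767, 990 and 493 in normal aortas, a rise of 1.28 (SE 0.28, limma adjusted p = 0.034). H2-Eb1 and H2-Ab1, chains of the class II molecules, rose by 1.29 and 1.19, and H2-Aa stood at 0.83 (SE 0.27, limma adjusted p = 0.0865). Leaving out 1 array often ended these calls: those for C1qa, C1qb, H2-Ab1 and Cd74 were kept in 1 of the 5 fits. The call for C1qc was kept in 2 and that for H2-Eb1 in 3. Without MPS VII replicate 2 the differences were 0.97 for C1qb, 0.85 for H2-Ab1, 1.04 for Cd74 and 0.71 for C1qa. Without normal replicate 3 the adjusted p was 0.0715 for C1qc and 0.0576 for H2-Eb1.

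Chemokines attract leukocytes and adhesion molecules hold them on the endothelium. Of 18 chemokine and cytokine genes 5 rose and 2 fell. Ccl8, which attracts monocytes and T cells, had 856 and 752 units without dilatation and 49.3, 129 and 54.1 in normal aortas, far apart, with a rise of 2.80 (SE 0.26, limma adjusted p = 0.00523) that held in all 5 fits. Cxcl14, a chemokine of stromal and epithelial cells, had 437 and 133 units and lay below background in all 3 normal aortas, at least 9.42-fold higher (limma adjusted p = 0.0116). Cxcl12, the ligand of Cxcr4, had 1986 and 1263 units against 527, 394 and 773 in normal aortas, a rise of 1.46 (SE 0.29, limma adjusted p = 0.0267). Il33, an alarmin of stromal cells, went the other way, with 203 and 295 units against 808, 699 and 850 in normal aortas, a difference of -1.50 (SE 0.18, limma adjusted p = 0.00839) that held in all 5 fits, and Csf1, the macrophage growth factor, fell by 0.77. Ccl21a, a chemokine of lymphatic vessels, had 735 and 185 units against -0.801, 131 and 43.4 in normal aortas and did not pass (2.19, SE 0.63, limma adjusted p = 0.0621). Of 14 toll-like receptor and adhesion genes 4 rose and 0 fell. Vcam1 had 2823 and 4209 units against 1110, 1017 and 1363 in normal aortas, a rise of 1.54 (SE 0.21, limma adjusted p = 0.0114) that held in all 5 fits. Icam1 had 548 and 650 units against 259, 173 and 237 in normal aortas, a rise of 1.26 (SE 0.18, limma adjusted p = 0.0128), its call ending without normal replicate 3 (adjusted p 0.0533). Neither overlapped the normal range. The calls for Cxcl14, Cxcl12 and Csf1 also ended without at least 1 array (highest adjusted p 0.0563, 0.128 and 0.101).

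Neutrophil and acute-phase genes had a median of 1.24, with 6 of 10 higher and 0 lower. S100a8, a calcium-binding protein of neutrophils, had 946 and 646 units without dilatation and 131, 48.6 and 6.01 in normal aortas, a rise of 3.06 (SE 0.44, limma adjusted p = 0.0128). S100a9, its partner, rose by 2.12 (SE 0.39, limma adjusted p = 0.0222). Lcn2, an iron-carrier-binding protein of neutrophils and stressed tissue, had 251 and 331 units against -1.88, 74.6 and 6.76 in normal aortas, a rise of 2.28 (SE 0.38, limma adjusted p = 0.018). The normal mice were spread over a wide range in all of them, at or below background in some, so the size of these differences depends on the offset, and the neutrophil genes Elane and Csf3r stood at -0.16 and 0.12. Mast cell genes rose in 3 of 6: Mcpt4, a mast cell protease, had 222 and 159 units against 64.3, 24.1 and 41.0 in normal aortas, a rise of 1.38 (SE 0.22, limma adjusted p = 0.0157). Of 16 interferon-stimulated genes 2 rose, with Ifit3 at 0.98 (SE 0.15, limma adjusted p = 0.0149). Of 10 T and NK cell genes 0 passed in either direction. The calls for S100a8, S100a9, Lcn2, Mcpt4 and Ifit3 each ended without at least 1 array (highest adjusted p 0.0583, 0.107, 0.0715, 0.0701 and 0.0547).

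**Figure D2:**
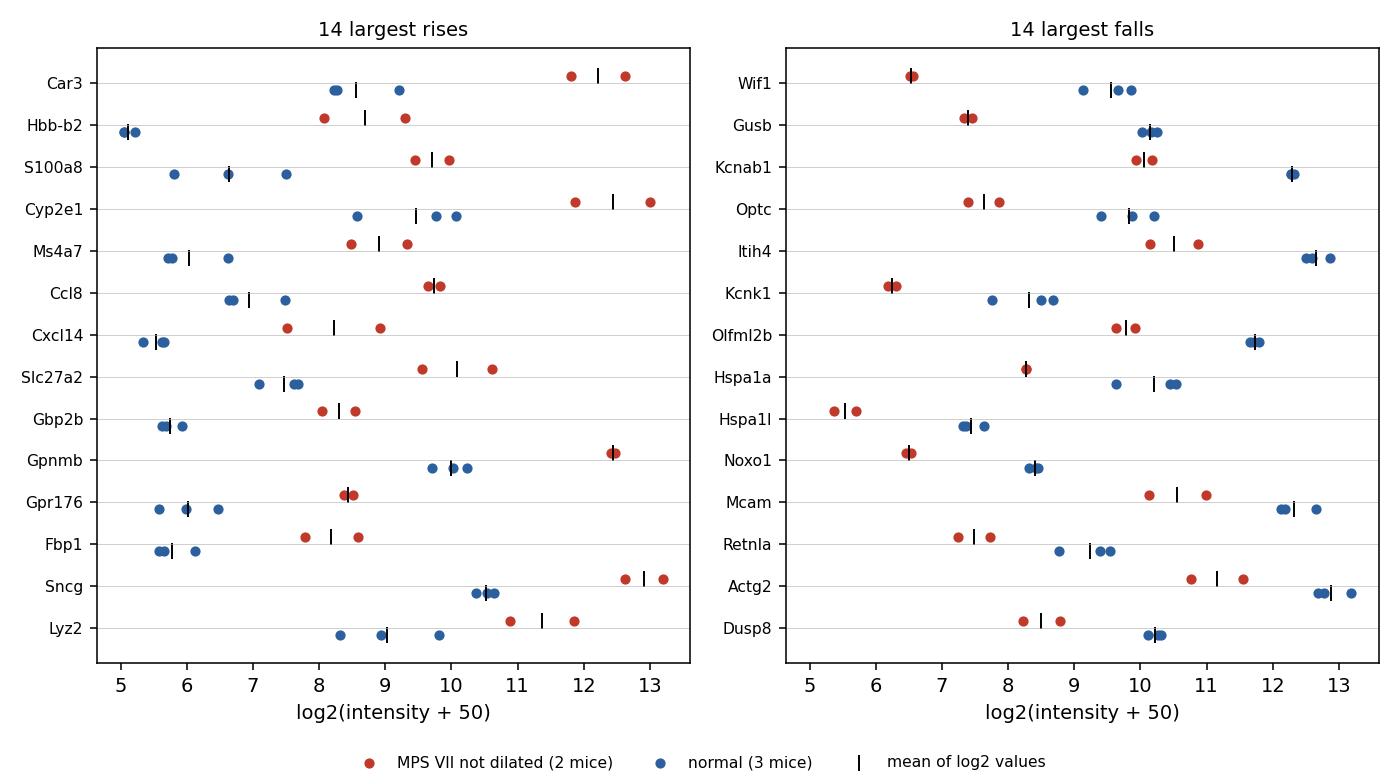
Log2 of intensity plus 50 for the 14 largest rises (left) and the 14 largest falls (right) by the rule for named genes, 1 point a mouse, with the 2 MPS VII aortas without dilatation in red above the 3 normal aortas in blue and bars at the group means. The groups are apart in all 28 genes because the rule for named genes required it. The red points lie closer together for Gpnmb, Ccl8 and Wif1 than for Hbb-b2, Cyp2e1 and Cxcl14.

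Genes of fat were higher in the aortas without dilatation. Of 18 white adipocyte genes 6 rose and 0 fell, of 15 thermogenic genes of brown fat 6 rose and 0 fell, and of 20 fatty acid oxidation genes 9 rose and 0 fell. Their medians were 1.30, 1.12 and 0.99. Car3, a cytosolic carbonic anhydrase of fat cells and muscle, had the largest difference of all named genes: 6268 and 3545 units without dilatation and 540, 248 and 258 in normal aortas, a rise of 3.65 (SE 0.35, limma adjusted p = 0.00523). Ucp1, the uncoupling protein that defines brown fat, had 10160 and 6514 units against 3155, 1250 and 1616 in normal aortas, a rise of 2.10 (SE 0.38, limma adjusted p = 0.0214). Cidea, a lipid droplet protein of brown fat, had 18234 and 12761 units against 6809, 3345 and 4612 in normal aortas, a rise of 1.68 (SE 0.30, limma adjusted p = 0.0209). Every normal aorta thus held fat transcripts, Ucp1 among them, and replicate 1 was the higher MPS VII mouse in all 3 genes.

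Genes of fatty acid uptake and burning were among those that rose. Slc27a2, which takes up fatty acids and activates very long chains, had 1522 and 700 units against 155, 85.8 and 148 in normal aortas, a rise of 2.62 (SE 0.33, limma adjusted p = 0.00913). Etfdh, which passes electrons from fatty acid oxidation to the respiratory chain, had 1861 and 943 units against 423, 333 and 338 in normal aortas, a rise of 1.74 (SE 0.27, limma adjusted p = 0.0156). Acaa2, the thiolase of the last oxidation step, rose by 1.57, but its 3 further probes, of similar brightness, gave 3.07, 3.10 and 3.11, so the size of its rise rests on the probe. Over the fits that left out 1 array, each with the brightest probe chosen anew, its value lay between 1.12 and 3.28. Its call ended without MPS VII replicate 1, where it stood at 1.12. Fabp3, a fatty acid carrier, rose by 1.83. In the respiratory chain itself 9 of 34 genes rose and 0 fell, with a median of 0.61. Sdhb, the iron-sulfur subunit of succinate dehydrogenase, had 3164 and 2074 units against 1132, 782 and 816 in normal aortas, a rise of 1.46 (SE 0.23, limma adjusted p = 0.0162), and Cyc1, cytochrome c1, rose by 1.26. The calls for Fabp3 and Cyc1 ended in 4 of the 5 fits, with Cyc1 at 0.78 without MPS VII replicate 1. Those for Etfdh and Sdhb ended without normal replicate 3 (adjusted p 0.066 and 0.0662), and that for Sdhb also without MPS VII replicate 1. Several defining fat genes had large differences that did not pass. Adipoq, the adipocyte hormone adiponectin, had 10224 and 6125 units against 3913, 1404 and 3134 in normal aortas (1.59, SE 0.42, limma adjusted p = 0.0525), and the fat regulator Pparg stood at 1.54. Lep, which encodes leptin and is more a gene of white than of brown fat, stood at -0.69. Ppargc1a, a regulator of mitochondrial genes, had 455 and 70.7 units against 71.5, 24.9 and 98.7 in normal aortas, so 1 mouse carried its difference of 1.16.

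The fat lists moved together by mouse. The summed intensity of the white adipocyte list was 127134 and 76470 in aortas without dilatation, against 60274, 32521 and 50790 in normal aortas, and that of the brown fat list 108027 and 67565 against 47335, 21878 and 39997. Normal replicate 2, a male, was the lowest of the normal mice in both and MPS VII replicate 1, a female, the highest mouse. The oxidative phosphorylation sum was 359818 and 272275 against 231505, 178528 and 209098 in normal aortas. A sum weighs the brightest probes most. Over the fits that left out 1 array, the number of white adipocyte genes called higher was between 1 and 9, of fatty acid oxidation genes between 1 and 12 and of oxidative phosphorylation genes between 0 and 11. Car3 and Slc27a2 were called in all 5. The calls for Ucp1 and Cidea ended without MPS VII replicate 1, at differences of 1.78 and 1.43, and also without normal replicate 3. How much fat was left on each vessel is not given in the labels. A fit with the mean of the white adipocyte list as a covariate, chosen after the data were seen, moved the medians of the brown fat, fatty acid oxidation and oxidative phosphorylation lists to -0.19, 0.09 and 0.05. The covariate comes from the same 5 arrays and its list had a median of 1.30, so it shares in the group difference. Genes that vary with it lose their difference by construction, so the fit cannot tell fat content from group, here or below. In this fit 17 genes were called, 14 of them among the 1149, and 1148 of the 1149 kept their sign. The median absolute difference of the 1149 was 0.69 in that fit and 0.86 without the covariate, and their median SE 0.29 and 0.17. The macrophage median was 1.63 and that of complement 0.96 with the covariate, and Ms4a7, Ccl8, Trem2, Ctsl, Lcn2, Gusb, Kcnab1 and Kcnk1 were among the genes still called.

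**Figure D3:**
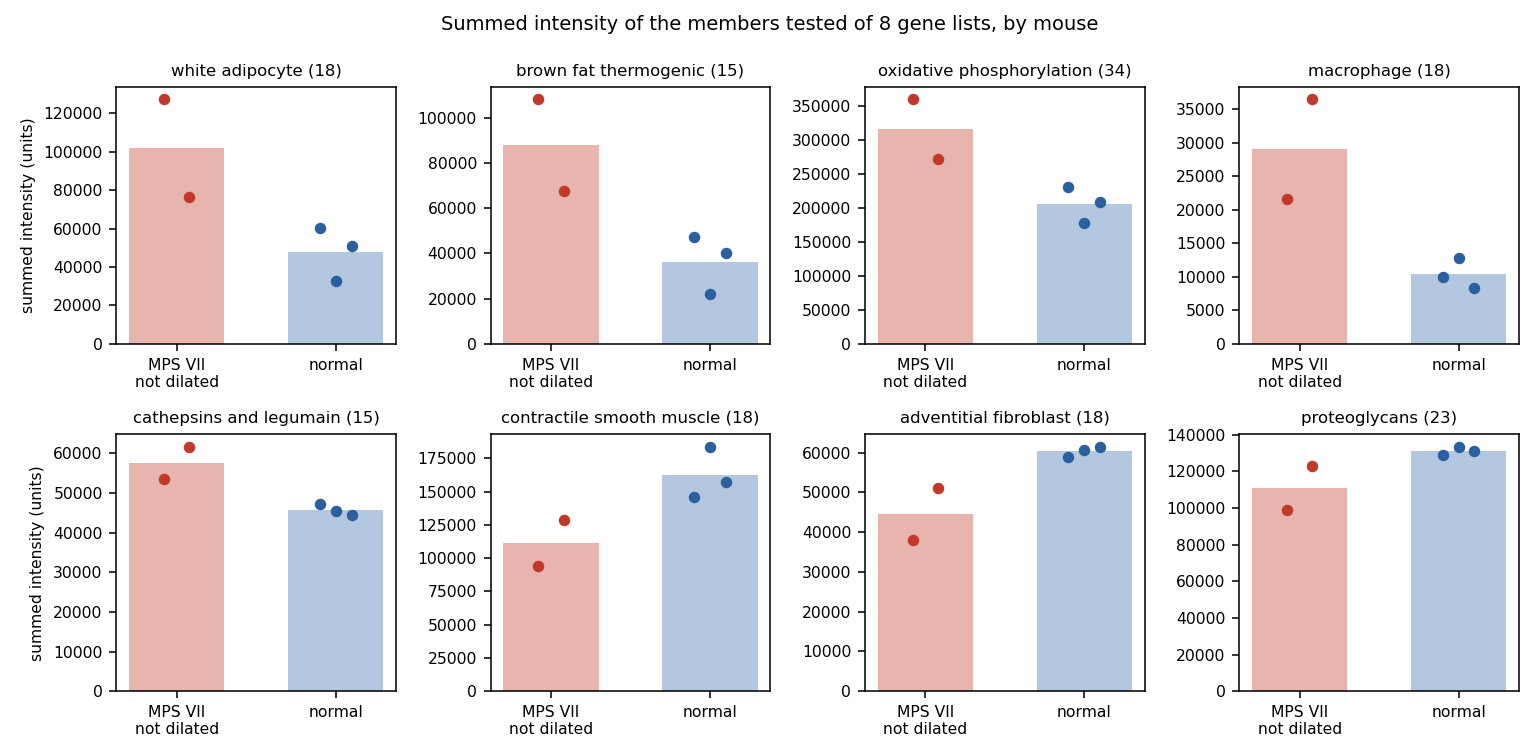
Summed intensity (vertical) of the tested members of 8 gene lists, 1 point a mouse and bars at the group means, with aortas without dilatation in red left of normal aortas in blue. The MPS VII points lie above the normal ones for the fat, oxidative phosphorylation, macrophage and cathepsin lists and below them for smooth muscle, fibroblast and proteoglycan genes.

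Contractile genes of smooth muscle were lower. Of 18 tested 7 fell and 0 rose, with a median of -0.76, and all 18 had a negative difference. Actg2, smooth muscle gamma-actin, had 1684 and 2953 units in aortas without dilatation and 6954, 9262 and 6549 in normal aortas, a difference of -1.73 (SE 0.26, limma adjusted p = 0.0146). Myocd, the coactivator that switches on contractile genes, had 2580 and 3080 units against 6982, 6197 and 6452 in normal aortas, a difference of -1.20 (SE 0.15, limma adjusted p = 0.00903) that held in all 5 fits. Cnn1, calponin, had 20.4 and 44.4 units against 114, 170 and 147 in normal aortas, a difference of -1.24 (SE 0.19, limma adjusted p = 0.0154). In all of them MPS VII replicate 1 was the lowest mouse. Cald1, caldesmon, fell by 1.16, Des, desmin, by 1.06 and Mylk, myosin light chain kinase, by 0.87. Cald1 was also called in all 5 fits, while the calls for Des and Mylk ended in 4. The call for Cnn1 ended without MPS VII replicate 1, where it stood at -1.03, and without normal replicate 3. That for Actg2 ended only without normal replicate 3 (adjusted p 0.0558). Both dim further probes of Myocd, near background, stood at -0.40 and 0.29.

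The most abundant contractile genes differed less. Myh11, smooth muscle myosin, had 12672 and 15923 units against 20043, 27268 and 22101 in normal aortas, below each normal mouse, but did not pass (-0.69, SE 0.18, limma adjusted p = 0.053). Acta2, smooth muscle alpha-actin, had 40636 and 53195 units against 45221, 56046 and 51237 in normal aortas, near the top of the scale of 64846, with overlapping groups (-0.12, SE 0.17, limma adjusted p = 0.656). Its 2 further probes, at lower brightness, stood at 1.04 and 1.21, so the probes of Acta2 disagree. The summed list was 94293 and 128409 against 145882, 183695 and 156823 in normal aortas, so the mouse with the most fat transcripts had the least contractile ones. The list median ranged between -1.11 and -0.50 over the fits that left out 1 array, with 2 to 11 members called lower, and was -0.14 with the adipocyte list as a covariate.

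Ion channels set the tone of the vessel. Of 19 potassium and calcium channel genes 3 fell and 0 rose. Kcnab1, a beta subunit of voltage-gated potassium channels, had 1101 and 928 units without dilatation and 4921, 5059 and 4921 in normal aortas. Both groups were tight and far apart, a difference of -2.24 (SE 0.14, limma adjusted p = 0.00279), and a further probe well above background gave -1.97. Cacna2d1, an auxiliary subunit of calcium channels, had 765 and 731 units against 1796, 1516 and 1820 in normal aortas, a difference of -1.14 (SE 0.14, limma adjusted p = 0.00987). Kcnk1, a potassium leak channel outside the list, had 29.0 and 22.7 units against 359, 167 and 310 in normal aortas, a difference of -2.07 (SE 0.27, limma adjusted p = 0.0102) into the range of the background. Kcnab1 and Cacna2d1 were called in all 5 fits, and Kcnk1 in all but the fit without normal replicate 3 (adjusted p 0.0514). The pore-forming channels of the list, such as Kcnma1 at -0.56 and Cacna1c at -0.07, did not pass.

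Proteoglycans carry the glycosaminoglycans whose breakdown fails in MPS VII. Of 23 genes of proteoglycan cores and hyaluronan 8 fell and 1 rose, with a median of -0.41. Optc, opticin, had 118 and 184 units in aortas without dilatation and 887, 1132 and 625 in normal aortas, a difference of -2.19 (SE 0.26, limma adjusted p = 0.00814). Ogn, osteoglycin, among the brightest of the list, had 5900 and 7785 units against 18319, 17450 and 18234 in normal aortas, a difference of -1.40 (SE 0.16, limma adjusted p = 0.00763). Omd, osteomodulin, had 53.4 and 78.7 units against 241, 228 and 335 in normal aortas, a difference of -1.45 (SE 0.19, limma adjusted p = 0.0105). These 3 small leucine-rich proteins were called in all 5 fits. Acan, aggrecan, the large chondroitin sulfate carrier, fell by 1.21 (SE 0.22, limma adjusted p = 0.0222), the glypican genes Gpc6 and Gpc1 by 1.12 and 0.93, and Agrn, agrin, by 0.64. Gpc6 was called in all 5 fits, and the calls for Acan, Gpc1 and Agrn ended without at least 1 array (highest adjusted p 0.108, 0.0705 and 0.167). Sdc3, a syndecan of the cell surface, rose: it had 1485 and 1483 units against 403, 509 and 484 in normal aortas (1.58, SE 0.15, limma adjusted p = 0.00523), also called in all 5 fits. Dcn, decorin, did not pass, at 16467 and 21733 units against 22473, 23060 and 23060 in normal aortas (-0.27, SE 0.16, limma adjusted p = 0.274). With the adipocyte list as a covariate the list median was -0.05, with 11 members above 0 and 12 below.

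Elastic fibre genes moved in both directions, with 1 of 14 higher and 3 lower. Eln, elastin, had 5023 and 6292 units without dilatation and 2750, 3341 and 3108 in normal aortas, above every normal mouse, a rise of 0.87 (SE 0.16, limma adjusted p = 0.0226) whose call ended in 3 of the 5 fits. Ltbp4, which guides elastin assembly and binds latent TGF-beta, had 3411 and 4036 units against 8304, 7822 and 8206 in normal aortas, a difference of -1.12 (SE 0.14, limma adjusted p = 0.00948). Mfap5, a microfibril protein, had 1318 and 1428 units against 3993, 4707 and 3291 in normal aortas, a difference of -1.49 (SE 0.18, limma adjusted p = 0.00839), and it and Ltbp4 were called in all 5 fits. The lysyl oxidase Lox, which crosslinks elastin, stood at 0.22. Of 17 collagen genes 2 fell and 0 rose, beside 6.45% and 5.49% of all genes tested. Col4a1, of basement membranes, fell by 0.89 (SE 0.23, limma adjusted p = 0.0479) and Col15a1 by 0.60 (SE 0.13, limma adjusted p = 0.031). The call for Col4a1 ended in 4 of the 5 fits, with a difference of -0.52 without MPS VII replicate 1, and that for Col15a1 ended in all 5. Of 18 matrix metalloproteinase and TIMP genes 2 rose and 2 fell. Timp4, an inhibitor of metalloproteinases, had 446 and 442 units against 174, 165 and 138 in normal aortas, a rise of 1.24 (SE 0.14, limma adjusted p = 0.00763) that held in all 5 fits. Mmp12, macrophage elastase, had 35.8 and 31.4 units and was below background in all normal aortas, at least 1.31-fold higher (limma adjusted p = 0.0185). Its call was kept in 1 of the 3 fits leaving out 1 array in which Mmp12 was tested. Mmp17 and Mmp23 fell by 0.93 and 0.88, but both calls ended in 4 of the 5 fits. Without MPS VII replicate 1 these genes stood at -0.58 and -0.59. Mmp2, gelatinase A, and Mmp3, stromelysin, stood at 0.40 and 0.83 (limma adjusted p = 0.101 and 0.154).

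Markers of adventitial fibroblasts fell in 5 of 18 and rose in 1. Pi16, a marker of adventitial progenitor-like fibroblasts, had 1942 and 2341 units in aortas without dilatation and 7435, 7021 and 6650 in normal aortas, a wide gap, with a difference of -1.70 (SE 0.15, limma adjusted p = 0.00476). Clec3b, tetranectin, had 185 and 205 units against 462, 440 and 490 in normal aortas, a difference of -1.07 (SE 0.13, limma adjusted p = 0.00942). Both were called in all 5 fits, while Tnxb, a tenascin of connective tissue, fell by 1.23 (SE 0.19, limma adjusted p = 0.0151) and lost its call without normal replicate 3 (adjusted p 0.0617). Not all fibroblast genes followed, with Pdgfra at -0.44, Gsn, gelsolin, at 0.35 and Lum, lumican, at 0.44, none of which passed. The list median of -0.39 was 0.01 with the adipocyte list as a covariate.

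Signals that shape the wall included the largest fall among the named genes. Wif1, a secreted inhibitor that binds Wnt proteins, had 41.2 and 44.5 units without dilatation and 760, 876 and 510 in normal aortas, a difference of -3.01 (SE 0.22, limma adjusted p = 0.00347) that held in all 5 fits. Among the other 17 Wnt genes, the secreted inhibitors Dkk3 and Sfrp1 rose by 0.73 and 0.63 and Sfrp2 fell by 0.57, while Axin2, a general target of Wnt signalling, stood at 0.15. Of 24 genes of TGF-beta and BMP signalling 3 fell and 0 rose, beside 6.45% and 5.49% of all genes tested. Tgfb2, a TGF-beta ligand, had 279 and 351 units against 494, 682 and 552 in normal aortas (a difference of -0.77, SE 0.18, limma adjusted p = 0.0374). Tgfbi, a matrix protein induced by TGF-beta, and Acvrl1, the endothelial receptor ALK1, fell by 0.65 and 0.52. The calls for Dkk3, Sfrp2, Tgfb2, Tgfbi and Acvrl1 ended in each of the 5 fits that left out 1 array, and that for Sfrp1 in 4 of them.

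**Figure D4:**
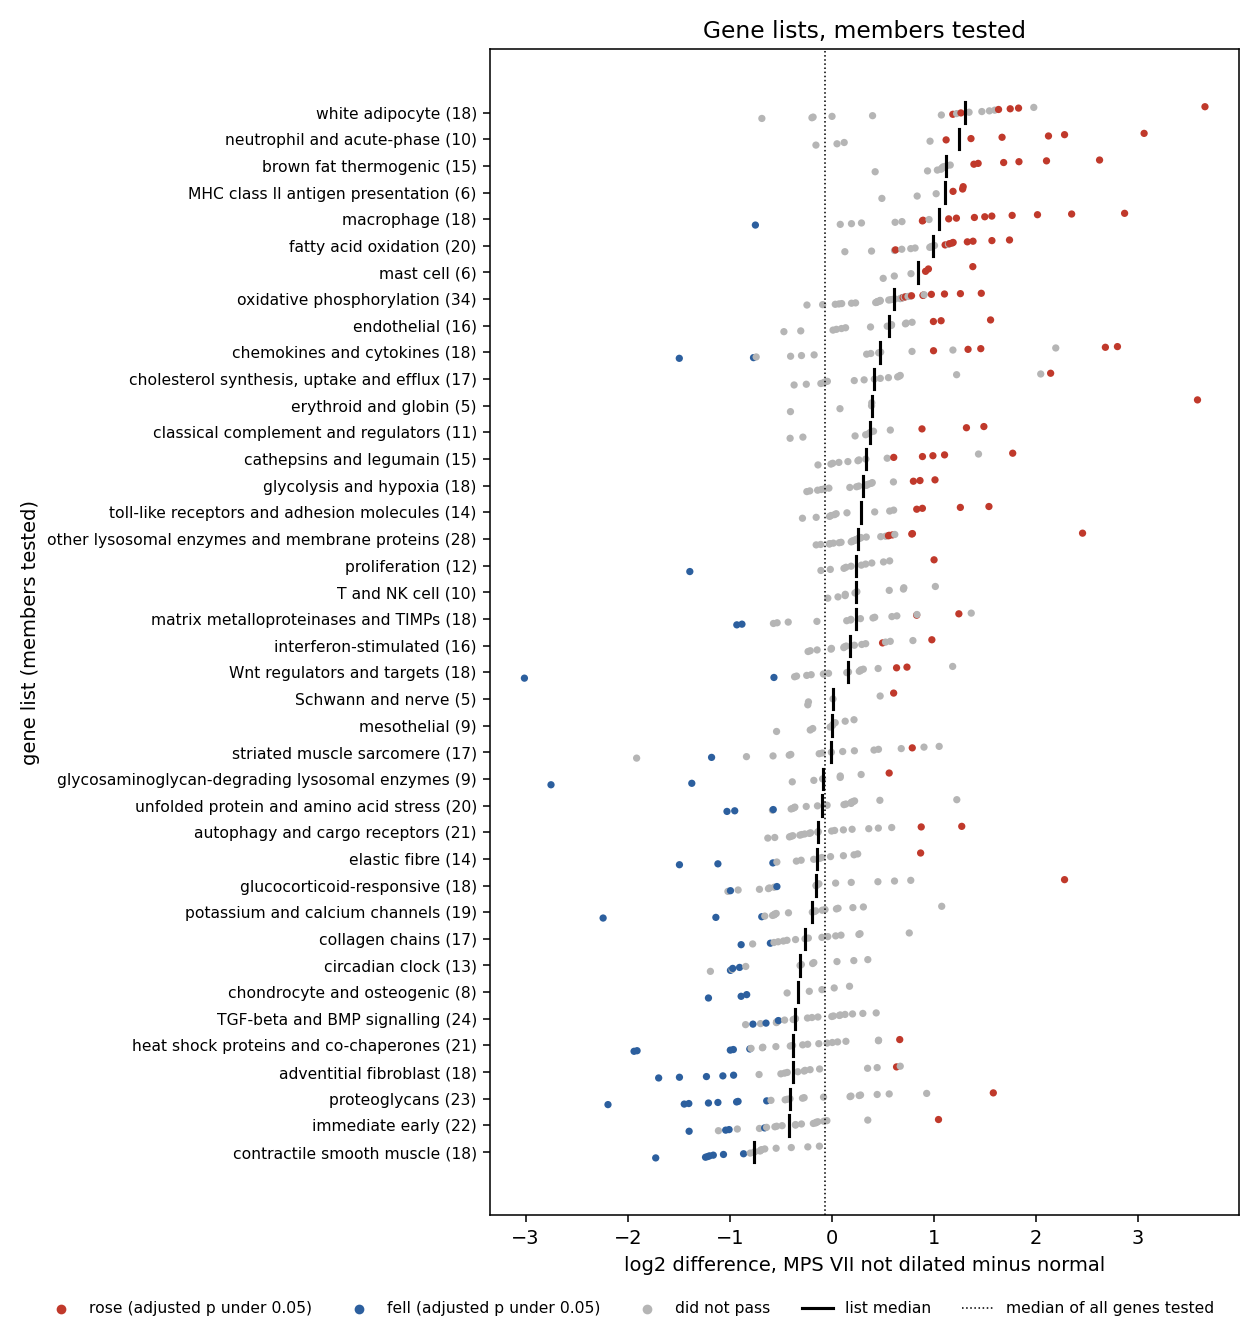
Log2 differences (MPS VII without dilatation minus normal, horizontal) of the tested members of each gene list with at least 5, ordered by list median (black bar), with members that rose in red, fell in blue and did not pass in grey. White adipocyte genes have the highest median, 1.30, and contractile smooth muscle genes the lowest, -0.76, beside -0.07 for all genes (dotted line).

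Endothelial genes had a median of 0.56, with 3 of 16 higher and 0 lower. The list as drawn up, before the background filter, shares Fabp4 and Cd36 with the white adipocyte list. Emcn, endomucin, a sialoglycoprotein of capillary and venous endothelium, had 694 and 579 units in aortas without dilatation and 209, 169 and 174 in normal aortas, a rise of 1.55 (SE 0.15, limma adjusted p = 0.00562) that held in all 5 fits. Egfl7, a secreted endothelial factor, had 2064 and 1795 units against 1081, 799 and 967 in normal aortas, a rise of 0.99 (SE 0.17, limma adjusted p = 0.0182). Tie1, an endothelial receptor kinase, was at least 2.51-fold higher (limma adjusted p = 0.0177), below background in all normal aortas. The calls for Egfl7 and Tie1 ended without at least 1 array (highest adjusted p 0.0857 and 0.0654). Pecam1, a junction protein of all endothelium, had 302 and 283 units against 555, 356 and 386 in normal aortas (-0.47, SE 0.20, limma adjusted p = 0.147), but its further probe stood at 0.69, so its direction rests on the probe. Vwf, von Willebrand factor, stood at 0.04. With the adipocyte list as a covariate the list median was -0.07. Fat is rich in capillaries, and the part of its vessels in these values was not tested.

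Several genes of acute stress were lower in the aortas without dilatation. Of 22 immediate early genes 4 fell and 1 rose, with a median of -0.42. Atf3, a stress-induced factor, had 71.7 and 74.2 units without dilatation and 283, 244 and 299 in normal aortas, a difference of -1.40 (SE 0.14, limma adjusted p = 0.00629). Jun and Fos, which pair to form the AP-1 factor, fell by 1.04 (SE 0.17, limma adjusted p = 0.0166) and 1.01 (SE 0.23, limma adjusted p = 0.036), while Egr1 had 5272 and 7210 units against 6401, 5641 and 9047 in normal aortas, with mixed groups. Of 21 heat shock genes 5 fell and 1 rose. Hspa1a, the inducible HSP70, had 257 units on both MPS VII arrays against 1432, 1345 and 740 in normal aortas, a difference of -1.94 (SE 0.27, limma adjusted p = 0.0119). Hspa1l, a relative beside it, had -8.71 and 1.92 units against 149, 115 and 110 in normal aortas, at least 4.83-fold lower (limma adjusted p = 0.00523), and Hspa2 fell by 0.97 (SE 0.13, limma adjusted p = 0.0117). HSP70 genes are close copies, so which was measured is uncertain. Hspd1, the chaperonin of mitochondria, rose by 0.66. Atf3, Hspa1a, Hspa1l and Hspa2 were called in all 5 fits, while the calls for Jun and Fos ended in 3 of them and that for Hspd1 in all 5. Among 20 genes of the unfolded protein and amino acid response 3 fell and 0 rose, beside 6.45% and 5.49% of all genes tested. Ddit3, the factor CHOP, stood at -0.37 and Atf4 at 0.19.

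Of 13 circadian clock genes 3 fell and 0 rose. The time of day at which each aorta was taken is not among the sample details used here, and its part in these values was not tested. Per1, a repressor of the clock, had 1265 and 760 units in aortas without dilatation and 2076, 1780 and 2183 in normal aortas, a difference of -0.99 (SE 0.22, limma adjusted p = 0.0345). Ciart, another repressor, had 257 and 267 units against 670, 558 and 474 in normal aortas, a difference of -0.97 (SE 0.17, limma adjusted p = 0.019). Nr1d2, a nuclear receptor of the clock, fell by 0.91 (SE 0.21, limma adjusted p = 0.0394). Dbp, an output factor whose level swings widely with the time of day, had 4248 and 10965 units against 13141, 13563 and 13803 in normal aortas, with replicate 1 far below the rest, and did not pass (-0.98, SE 0.35, limma adjusted p = 0.107). Each of the 3 calls ended without at least 1 array (highest adjusted p 0.107, 0.0819 and 0.157).

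Other large changes lay outside the lists or in lists not described above. Cyp2e1, a cytochrome P450 of liver and fat, had 8189 and 3685 units against 1026, 330 and 820 in normal aortas, a rise of 2.97 (SE 0.48, limma adjusted p = 0.0174). Sncg, gamma-synuclein, a protein of nerve and fat cells, had 6285 and 9341 units against 1549, 1272 and 1439 in normal aortas, a rise of 2.40 (SE 0.20, limma adjusted p = 0.00413), with replicate 2 the higher, unlike the adipocyte genes above. Gpr176, an orphan receptor, had 282 and 316 units against -2.37, 13.4 and 39.2 in normal aortas, a rise of 2.43 (SE 0.25, limma adjusted p = 0.00654). Gbp2b, an interferon-induced GTPase, and Fbp1, an enzyme of glucose synthesis, were below background in normal aortas and at least 10.3-fold and 9.30-fold higher (limma adjusted p = 0.00347 and 0.00763). Hbb-b2, a beta-globin of the erythroid list, had 581 and 220 units and lay below 0 in all normal aortas, at least 13.99-fold higher (limma adjusted p = 0.00523). Hba-a1, an alpha-globin, did not follow, at 63380 and 41928 units against 48443, 34327 and 36741 in normal aortas (0.39, SE 0.23, limma adjusted p = 0.279), and the beta-globin genes are near copies, so which of them the Hbb-b2 probe reads is uncertain. Apoe, of the cholesterol list, a lipid carrier of macrophages and many other cells, had 4479 and 3067 units against 838, 954 and 642 in normal aortas, a rise of 2.14 (SE 0.22, limma adjusted p = 0.00654). Sncg, Gpr176 and Apoe held in all 5 fits. The call for Cyp2e1 ended without MPS VII replicate 1, where it stood at 2.40, and without normal replicate 3.

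Among falls outside the lists, Itih4, a secreted protein of the inter-alpha-trypsin inhibitor heavy chain family, had 1080 and 1821 units without dilatation and 6111, 5754 and 7405 in normal aortas, a difference of -2.15 (SE 0.23, limma adjusted p = 0.00704). Olfml2b, a secreted olfactomedin-like protein, had 741 and 921 units against 3507, 3309 and 3186 in normal aortas, a difference of -1.95 (SE 0.15, limma adjusted p = 0.00347). Noxo1, the organiser of NADPH oxidase 1, had 37.7 and 42.9 units against 292, 270 and 302 in normal aortas, a difference of -1.90 (SE 0.13, limma adjusted p = 0.00347). In all 3 genes the groups were far apart, and the calls held in all 5 fits. Mcam, an adhesion molecule of smooth muscle and endothelium, had 1067 and 1978 units against 4619, 6395 and 4397 in normal aortas, a difference of -1.76 (SE 0.28, limma adjusted p = 0.0159), and its 2 further probes gave -1.84 and -1.88. Its call was kept in 3 of the 5 fits, ending without MPS VII replicate 1 and without normal replicate 3 (adjusted p 0.0576 in the latter). Dusp8, a phosphatase that turns off stress kinases, had 391 and 249 units against 1054, 1215 and 1180 in normal aortas, a difference of -1.72 (SE 0.19, limma adjusted p = 0.00748).

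Set beside the 3 aortas of MPS VII mice with dilatation (females of 7.8 and 9.1 months and a male of 6 months), in a fit of all 8 arrays, the aortas without dilatation had 0 of 10040 genes past the threshold (0%), with 910 genes at an unadjusted p under 0.05 and a smallest adjusted p of 0.0509. With sex as a covariate 19 genes passed, 1 higher and 18 lower. The genes with the smallest p were lower without dilatation. Fcer1g had 591 and 1022 units without dilatation against 3074, 3401 and 2810 with it (-1.92, SE 0.23, limma adjusted p = 0.0509), Sfrp1, a secreted Wnt inhibitor, had 672 and 487 against 2197, 2067 and 1481 (-1.64, SE 0.19), and Ccn4, a matricellular target of Wnt signalling, had 191 and 265 against 821, 703 and 827 (-1.59, SE 0.19). The groups were apart in all 3. For the large falls described above the values stood as follows. Wif1 had 41.2 and 44.5 units without dilatation and 69.6, 40.8 and 46.7 with it, and Kcnab1 had 1101 and 928 without it and 1463, 1023 and 652 with it. Both comparisons share the MPS VII arrays without dilatation. The effect of MPS VII did not pass as different between the sexes for any gene (0 called of 9623, 542 at an unadjusted p under 0.05, smallest adjusted p 0.299), on 1 residual degree of freedom.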

How the data were processed

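RNA of each aorta was measured on 1 array, and each title names a separate mouse, so the replicates are mice. The deposited values are linear intensity units; the submitters' processing notes name GenomeStudio and Partek without roles, and how the scans became these values is not given in the sources used here. About 28% of the deposited intensities lie below 0, so a background had been subtracted, and once sorted, the arrays differ by at most 0.94 units below the 10 highest values, so a shared distribution had been imposed. A deposited signal table with 16 columns that match no single sample was not used. Negative values served to estimate the noise (SD 11.0), whose one-sided 0.01 bound, 25.6, was the limit of background. Of 25697 probes, 23141 have 1 gene symbol in the platform annotation, 0 have several and 2556 have none; all 23141 matched the GRCm38.p6 gene table.

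A probe entered the test when 2 or more of the 5 arrays exceeded that limit, each gene by its brightest probe (9623 genes, 8594 of them named). Among 365 further probes of called genes, 87.7% had the sign of the probe used. A mean per group was fitted to log2(intensity + 50) with lmFit and eBayes of limma 3.58.1 in R 4.3.3 (3 residual and 4.27 prior degrees of freedom), with Benjamini-Hochberg adjustment over all genes, two-sided, at 0.05. The offset understates changes of dim genes. An exact permutation test of 2 against 3 arrays has 10 splits and cannot go below 0.2, so all p-values come from limma's model, and the number of arrays limits the precision. The procedure was tested on simulated data. Where no array of a group was above background, the fold is given as at least N: the brighter group's mean log2 intensity against that of the dim group, with values under the background limit raised to it.

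Named genes are first the 14 largest rises and 14 largest falls among called genes whose groups did not overlap and whose brighter group averaged at least 100 units. Added to them are the key members of 42 gene lists (1 of them the sex check) and up to 4 called members of each list with the largest differences. The members and lists were chosen with earlier results of these data known. Lists are described by counts and medians, without a test. Other list members named in the text lie outside this rule and were chosen after their values were seen. Alternatives covered offset, floor, filters, normalization, probe choice, array weights, covariates, a replicate block and leaving out each array.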

Additional observations from a re-analysis of the deposited data

How the results depend on the processing

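Of 9623 genes, 1149 were called. With an offset of 16 the count was 523 (227 higher, 296 lower) and with a floor of 16 it was 545 (251 and 294). With a replicate block it was 1940 (1034 higher) and with sex as a covariate 1786 (913 higher). Same-numbered mice also share their sex, and only 2 numbers are shared, with correlations of deviations of 0.343 and 0.303, so the numbers were not taken to pair the mice. The adipocyte list as a covariate, chosen after the data were seen, left 17 (14 higher, 3 lower). Leaving out each array gave 153 to 801 calls, 74 to 410 higher and 79 to 391 lower. The other alternatives gave 861 (age as covariate) to 1380 (offset 100). Cyclic loess turned the split to 539 higher and 432 lower, from 528 and 621. Against dilated aortas, 0 genes passed, but 3 did with an offset of 100, with a 0.05 background bound or with array weights, 4 without a filter, 19 with sex as a covariate and 0 to 3 without 1 array; with the replicate block 0 passed.

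Some signs turned. With the adipocyte covariate these became Idua 0.11, Dcn 0.033, Acta2 0.37, Egr1 0.022, Cox7a1 -0.44, Ppargc1a -0.79, Cpt1b -0.19, Pdk4 -0.43, Hba-a1 -0.39, Dbp 0.0014 and Orm1 -0.0049; of these only Orm1 had been called. Ctss was 0.021 with an offset of 16, 0.064 with the floor, 0.0052 with sex as covariate and -0.24 to 0.19 without 1 array. Acta2 was 0.71 with the mean of its probes and -0.32 to 0.071 without 1 array. Pecam1, whose probes disagree, was 0.11 with the mean of its probes, 0.69 with all 8 arrays and -0.58 to 0.84 without 1 array. The brightest probe was chosen anew in each fit, so the values of Pecam1 mix its probes. The 0.69 with all 8 arrays is that of its further probe. Egr1 was 0.037 with the replicate block and -0.38 to 0.065 without 1 array, and Cxcl16 -0.018 to 0.70 without 1 array. Beyond this change of probe for Pecam1, the cause was not tested.

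Limits: 2 mice stand against 3, 870 of the 1149 genes were also called with all 8 arrays in the fit, and genes with intensities near 25.6 have little signal over background.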

Other observations

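Genes in this section were picked after their values were seen and lie outside the rule for named genes. The first 4 encode plasma proteins and were higher in MPS VII aortas without dilatation. They stand for no list: Itih4, also a plasma protein, was among the 14 largest falls (-2.15), and Hp, haptoglobin, had 8194 and 4771 intensity units against 4098, 2667 and 2965 in normal aortas and did not pass (0.96, limma adjusted p = 0.0605). Fetub, fetuin-B, had 374 and 430 intensity units without dilatation and 53.6, 127 and 89.0 in normal aortas (log2 difference 1.72, limma adjusted p = 0.0107), and Ahsg, fetuin-A, which binds calcium phosphate, had 503 and 586 against 115, 224 and 181 in normal aortas (1.44, limma adjusted p = 0.0155). Trf, transferrin, had 970 and 770 against 236, 257 and 148 in normal aortas (1.82, limma adjusted p = 0.00861), and Kng2, a kininogen, had 352 and 200 against 54.0, 50.7 and 35.1 in normal aortas (1.72, limma adjusted p = 0.0101). In each, both MPS VII mice lay above every normal mouse.

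Among falls, Bmpr1b, a BMP receptor, had 169 and 167 units without dilatation and 690, 627 and 546 in normal aortas (-1.62, limma adjusted p = 0.00523), tight in both groups. Rgs4, which damps signals of G protein-coupled receptors, had 1220 and 831 against 2895, 3475 and 2913 in normal aortas (-1.57, limma adjusted p = 0.00903). Wfdc17, a secreted protein of macrophages, rose by 2.08, with 502 and 581 units against 68.6, 108 and 94.3 in normal aortas (limma adjusted p = 0.00412).

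A stretch of chromosome 5 around Gusb held more calls than the array as a whole. Of the 40 tested genes nearest to Gusb in the GRCm38.p6 gene order, 20 on either side, 4 rose and 5 fell, 22.5% against 11.9% of all genes tested. The risers were Nipsnap2 (0.70), Gtf2ird1 (0.80), Lat2 (0.95) and Eln (0.87), and the falls Tctn2 (-0.87), Mmp17 (-0.93), Tpst1 (-0.64), Cldn3 (-1.01) and Stx1a (-1.34). The window was chosen after the data were seen, the breeding of the mice is not in the labels, and no test was run on it. Eln and Mmp17, described with the matrix genes, lie in this stretch.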
